A study of Saccharomyces cerevisiae with 6 samples.

Results

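The 10 genes described here encode hydrophilins and other small proteins that budding yeast makes under stress: GRE1, SIP18, HSP12, STF2, RTC3, MSC1, DDR2, TMA10, TFS1 and MOH1. They are 10 of the 5449 genes read on the arrays, and each was read by 1 probe set. The list was chosen on the measured difference between the mutant and the wild type, together with what the proteins are known for. Their differences are therefore given as a description with no p-value, and counts of calls among them are read as no result.

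Signals came from one-colour Affymetrix arrays of Saccharomyces cerevisiae, 3 from cells with wild-type histone H2A and 3 from cells with the H2A R78A form, which has alanine in place of an arginine. Both groups grew in rich glucose medium at 30 °C and were harvested in mid-log phase, at an optical density of 0.5 to 0.7. The labels give neither the strain background nor whether the mutant was 1 clone. Nothing states that the replicates were separate cultures, so p-values measure the spread between these arrays, which may be technical.

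Hydrophilins are glycine-rich, strongly hydrophilic proteins that stay largely unfolded in water, and yeast accumulates them when cells lose water, meet high osmolarity or enter stationary phase. Several protect enzymes or membranes during drying. Most genes for such proteins carry stress response elements bound by the transcription factors Msn2 and Msn4, which protein kinase A holds back in growing cells with ample glucose. In mid-log growth on glucose these genes are normally far below their stressed level.

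The deposited signals share 1 trimmed mean on every array, so a level is relative to the other transcripts of that array. The mutant arrays had a narrower range: the 10th percentile of the genes lay between 90.2 and 102 in wild type and between 121 and 135 in the mutant. Dim probe sets were shifted upward with it. The 1363 genes with the lowest mean signals, up to 232, had a median log2 difference of 0.28, mutant minus wild type, and the 1362 genes with the highest, from 694, had -0.11. After quantile normalization these medians were -0.05 and -0.01. GRE1, SIP18 and MOH1 belong to the first of these groups, STF2 belongs to the last, and the other 6 genes lie between them. In bulk RNA, a larger share of cells making a transcript and more transcript per cell cannot be told apart.

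The label of the list was set against the coding lengths in the gene table. Of the 10 genes 9 are short, from 186 bases for DDR2 to 660 for TFS1, where the median of 6021 protein-coding genes is 1203. MSC1, with 1542 bases, is longer than 64.1% of them, so the word small does not describe it.

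All 10 genes had a higher mean in the mutant, with log2 differences from 0.30 for MOH1 to 1.75 for GRE1 and a median of 0.86. The median of all genes was 0.02. For 9 of the 10, every mutant array lay above every wild-type array, which was so for 25.7% of all genes. In limma's fit across all genes 9 had an adjusted p below 0.05 and none of the 10 was lower. Of all genes 17.9% passed as higher and 9.18% as lower. Of the 10 genes 4 (GRE1, RTC3, MSC1 and TMA10) were higher by a factor of 2 or more, as were 2.62% of all genes. Because the list was chosen on this contrast, nothing is read from these counts. With the replicate number as a block 10 of the 10 passed as higher. Over all genes, 1292 then passed as higher in place of 976, and 857 as lower in place of 500.

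**Figure D1:**
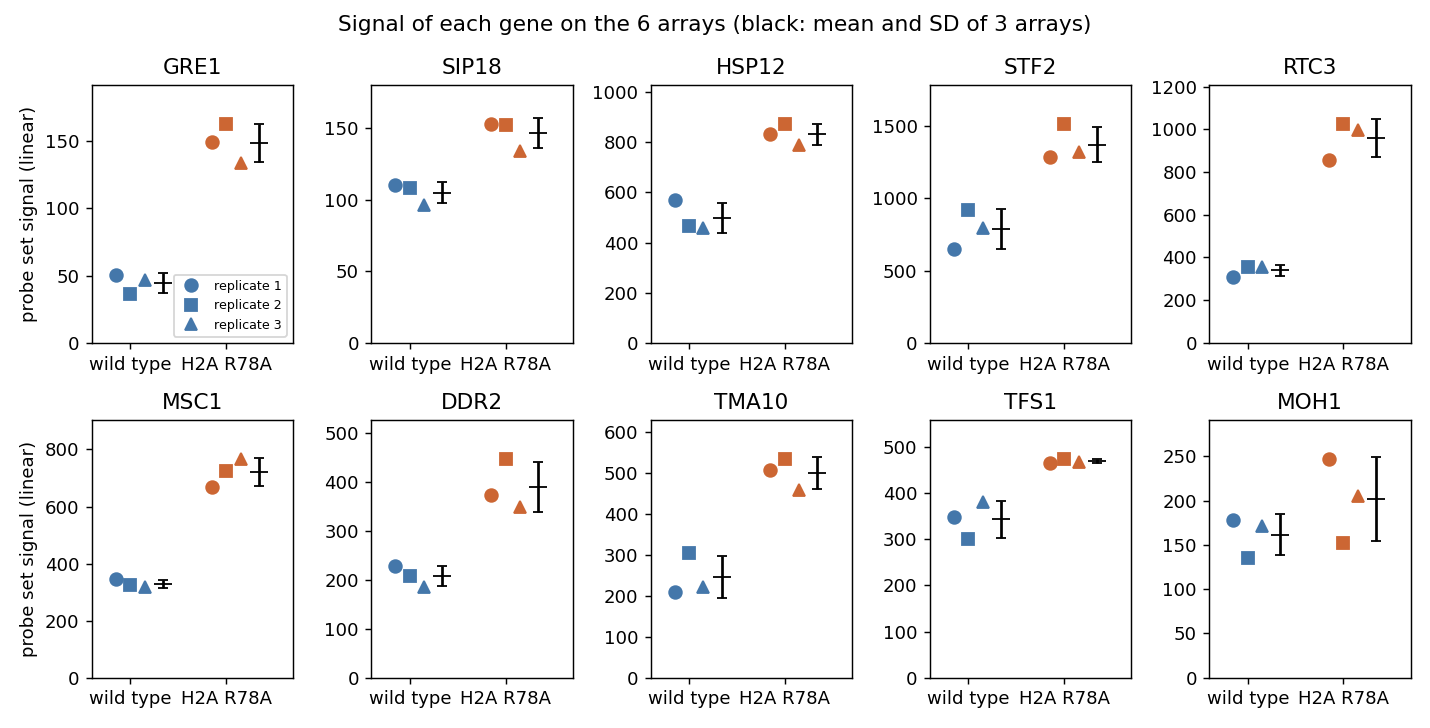
Probe set signal (linear scale, from 0) of each of the 10 genes on the 3 wild-type arrays (blue) and the 3 H2A R78A arrays (orange), with a marker shape for each replicate number; black bars are the mean and SD of 3 arrays. The groups are apart in every panel except that of MOH1, where mutant replicate 2 (153) lies among the wild-type arrays.

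GRE1 and SIP18 are paralogs that arose from the whole-genome duplication, and both encode hydrophilins induced by osmotic stress. GRE1 (YPL223C) read 50.1, 36.1 and 46.8 on the wild-type arrays and 149, 163 and 134 on the mutant arrays. Its lowest mutant value was 2.67 times its highest wild-type value. The means were 44.3 ± 7.34 and 149 ± 14.3 (SD, n = 3), a 3.37-fold difference and the tenth largest on the array (log2 1.75, SE 0.15). All 6 signals were below 232, and the size depended on how dim values were treated. The log2 difference was 1.32 after quantile normalization, and 0.41 when values below the 10th percentile of all signals were raised to it.

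SIP18 (YMR175W), whose product binds phospholipids and is needed for survival of drying, gave 110, 108 and 96.4 in wild type and 153, 153 and 134 in the mutant. The groups did not overlap, but the gap was small, the lowest mutant array being 1.22 times the highest wild-type array. The log2 difference was 0.48 (SE 0.11), which is 1.27 less than that of GRE1 as deposited. With low values raised it was 0.39, beside 0.41 for GRE1. It depended on the scaling: quantile normalization gave 0.12, cyclic loess 0.19 and median centring 0.42, and SIP18 was no longer among the genes called after quantile normalization or cyclic loess. The upward shift of dim probe sets given above moves with this value, and its part was not tested.

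STF2 and TMA10 are the other pair of paralogs. Stf2 stabilises the complex of the mitochondrial ATP synthase with its inhibitor and is also a hydrophilin needed for survival of drying, while Tma10 associates with ribosomes and its function is not known. STF2 (YGR008C) gave 647, 919 and 798 in wild type and 1285, 1512 and 1320 in the mutant. It had the brightest probe set of the 10 and was 1.75-fold higher (log2 0.81, SE 0.11). TMA10 (YLR327C) gave 210, 306 and 222 in wild type and 507, 534 and 458 in the mutant, a 2.06-fold difference (log2 1.04, SE 0.13). For both paralogs wild-type replicate 2 was the highest wild-type array, and the mutant arrays lay clear of it. After quantile normalization their log2 differences were 0.90 and 0.95.

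HSP12 encodes a small, largely unfolded heat shock protein that binds the plasma membrane and is a common readout of Msn2 and Msn4 activity. HSP12 (YFL014W) gave 569, 465 and 460 in wild type and 833, 871 and 788 in the mutant, which is 1.68-fold higher (log2 0.74, SE 0.09). Wild-type replicate 1 stood above the other wild-type arrays, and the lowest mutant array was still 1.39 times as bright. The difference lay between 0.69 and 0.84 over the alternatives run.

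DDR2, first found as a DNA damage-responsive gene, encodes a very small protein induced by many stresses. DDR2 (YOL052C-A) gave 228, 209 and 186 in wild type and 373, 447 and 348 in the mutant, a 1.87-fold difference (log2 0.90, SE 0.11). Mutant replicate 2 was the highest array, and without it the log2 difference was 0.80.

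RTC3 and MSC1 encode proteins of less certain role. Rtc3 resembles part of the human ribosome maturation protein SBDS and has been linked to RNA metabolism, and Msc1 was found through mutants in which meiotic recombination chose its partner wrongly. RTC3 (YHR087W) gave 309, 353 and 355 in wild type and 856, 1024 and 999 in the mutant. Its difference of 2.83-fold (log2 1.50, SE 0.09) was exceeded by 30 genes on the array, and the lowest mutant value was 2.41 times the highest wild-type value. MSC1 (YML128C) gave 345, 326 and 316 in wild type and 669, 723 and 766 in the mutant, which is 2.19-fold higher (log2 1.13, SE 0.07). MSC1 had the smallest standard error of the 10, its coefficients of variation being 4.45% in the wild-type group and 6.81% in the mutant group. Both changed little with the scaling, RTC3 being 1.49 and MSC1 1.11 after quantile normalization.

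TFS1 encodes an inhibitor of the vacuolar carboxypeptidase Y, and its product also binds Ira2, a negative regulator of Ras. TFS1 (YLR178C) gave 348, 301 and 380 in wild type and 466, 474 and 469 in the mutant, a 1.37-fold difference (log2 0.46, SE 0.09). The mutant arrays were nearly equal, with a coefficient of variation of 0.931% against 11.6% in wild type.

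MOH1 encodes a conserved protein of unknown function that has been linked to survival in stationary phase. MOH1 (YBL049W) gave 178, 135 and 171 in wild type and 247, 153 and 205 in the mutant. It was the one gene of the 10 whose groups overlapped, since mutant replicate 2 lay below wild-type replicates 1 and 3. The log2 difference of 0.30 had a standard error of 0.17, and 1008 genes had a larger one. It was 0.14 without mutant replicate 1, 0.18 without wild-type replicate 2 and 0.49 without mutant replicate 2, and 0.06 after quantile normalization.

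**Figure D2:**
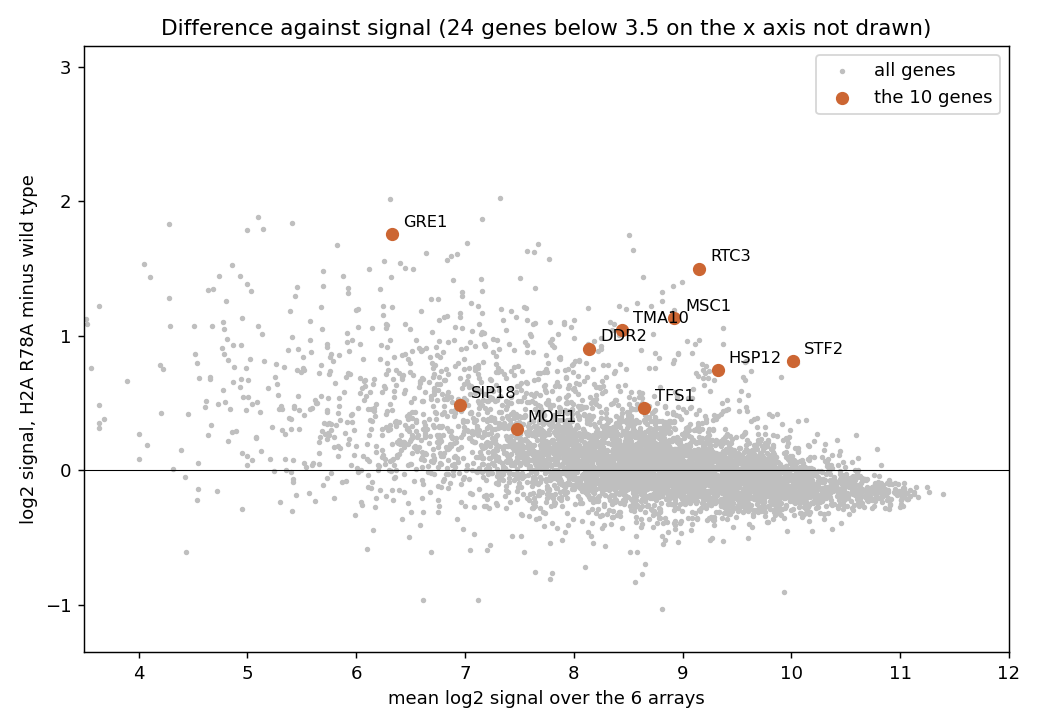
Log2 difference, H2A R78A minus wild type (y axis), against the mean log2 signal over the 6 arrays (x axis), for all genes (grey) and the 10 genes (orange). The cloud of all genes runs from above 0 at low signal to below 0 at high signal. GRE1 and RTC3 lie at its upper edge, while SIP18 and MOH1 lie inside it.

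The replicates were then compared within each group, which the choice of the list did not use. Mutant replicate 2 was the highest mutant array for 7 of the 10 genes, namely GRE1, HSP12, STF2, RTC3, DDR2, TMA10 and TFS1, and was the highest for 34.9% of all genes. Its median over the 10 genes was 1.03 above their wild-type means on the log2 scale, against 0.80 and 0.75 for mutant replicates 1 and 3. The mean over the 10 genes, each centred on its own mean of 6 arrays, differed less, with 0.50 against 0.46 and 0.41. Without mutant replicate 2 the median difference of the 10 genes was 0.77. MOH1 ran the other way and was lowest on mutant replicate 2, as were 42.7% of all genes. In wild type, replicate 1 was highest for 6 of the 10 genes, against 30.9% of all genes. STF2, RTC3 and TMA10 were lowest there, as were 26.0% of all genes.

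**Figure D3:**
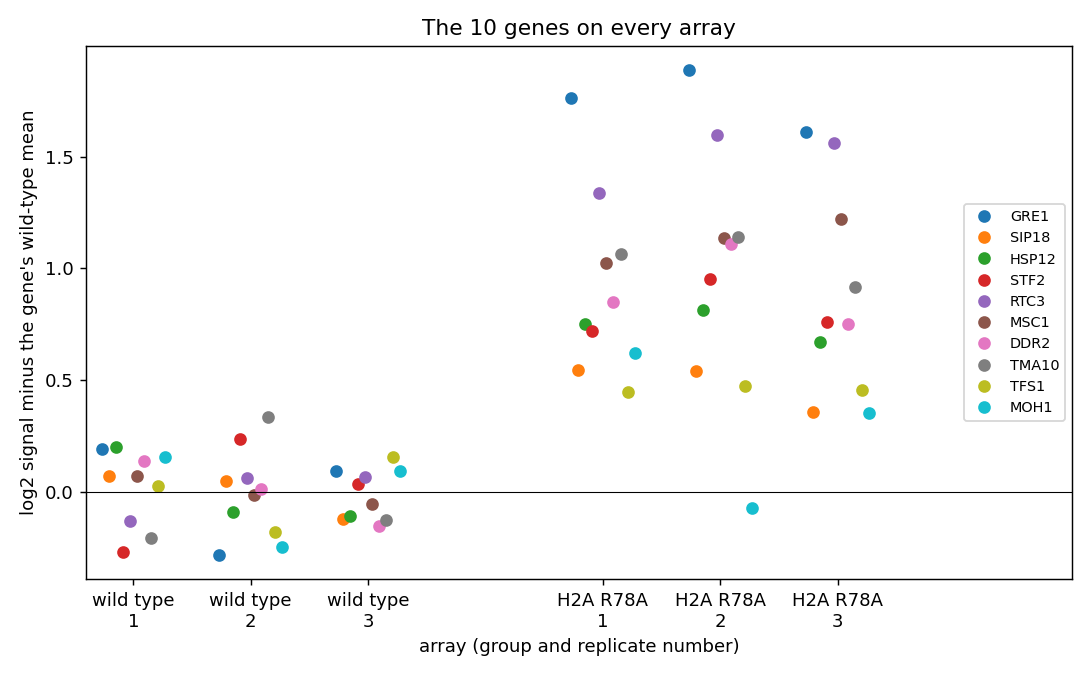
Log2 signal of each of the 10 genes minus that gene's wild-type mean (y axis), on each of the 6 arrays (x axis, group and replicate number). On mutant replicate 2 the points span -0.07 (MOH1) to 1.89 (GRE1), and MOH1 is the only point of the mutant arrays below 0.

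Relatives of the genes that are not among the 10 were tested in the same limma fit. HOR7, the paralog of DDR2, is also induced by high osmolarity. It gave 900, 1062 and 1017 in wild type and 1234, 1374 and 1246 in the mutant, and rose 1.30-fold (log2 0.37, SE 0.07, limma adjusted p = 0.00395). The groups did not overlap, and the difference was 0.53 less than that of DDR2 as deposited. After quantile normalization the 2 genes were closer, with 0.47 for HOR7 and 0.78 for DDR2. YLR179C, which resembles TFS1 and lies next to it in the gene table, gave 1156, 1199 and 1082 in wild type and 1041, 1280 and 1092 in the mutant. Its groups overlapped, and it did not pass (log2 -0.01, SE 0.08, limma adjusted p = 0.907; 0.08 after quantile normalization). Whether TFS1 and YLR179C differ from each other in response was not tested, since TFS1 was chosen on its own.

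Of the other hydrophilins listed, YNL190W, a cell wall protein, and NOP6, a protein of ribosome assembly, were measured. Neither passed in limma, and neither had an unadjusted p below 0.05. YNL190W had a log2 difference of 0.13 (SE 0.16, adjusted p = 0.582), with wild-type replicate 2 at 321 and the other wild-type arrays at 534 and 533. NOP6 had -0.12 (SE 0.06, adjusted p = 0.173). The third listed hydrophilin gene, YJL144W, was not analysed here.

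Proteins that work with Stf2 and Tfs1 were compared next. Of 4 genes 2 were higher and 0 lower (0 lower also at an unadjusted p below 0.05), beside 17.9% and 9.18% of all genes. Both higher genes encode partners of Stf2. STF1, which like STF2 acts with the ATP synthase inhibitor, rose 1.65-fold, from 437 ± 55.3 to 719 ± 44.4 (SD, n = 3; log2 0.72, limma adjusted p = 3.64e-04). INH1, the inhibitor itself, rose 1.29-fold, from 415 ± 22.7 to 536 ± 41.5 (log2 0.37, limma adjusted p = 0.00668). PRC1, the carboxypeptidase Y that Tfs1 inhibits, had a log2 difference of 0.08 and IRA2 had 0.17 (limma adjusted p of 0.591 and 0.0623; IRA2 passed with the replicate block, 0.0207, after quantile normalization, with cyclic loess, and without wild-type replicate 3 or mutant replicate 2). The median of the 4 was 0.27.

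Transcripts of the regulators upstream were tested in the same fit. The 19 measured genes were of the Msn2, Hog1 and protein kinase A pathways, with the stress factor genes HSF1 and YAP1 besides. Of the 19 genes 3 were higher and 1 lower, beside 17.9% and 9.18% of all genes, with a median log2 difference of 0.09. RIM15, a kinase that drives entry into stationary phase, rose from 97.0 ± 8.89 to 142 ± 15.8 (log2 0.55, limma adjusted p = 0.00827). PSR1, a phosphatase needed for full activation of Msn2, rose from 142 ± 14.2 to 198 ± 32.7 (log2 0.47, adjusted p = 0.0228). MSN4 rose from 142 ± 18.2 to 180 ± 8.11 (log2 0.35, adjusted p = 0.0421). All 3 are dim, and none of the 3 passed after quantile normalization, where the differences were 0.19, 0.20 and 0.07, or after cyclic loess. With low values raised RIM15 had 0.34 and still passed (limma adjusted p = 0.0476). The PSR1 call also ended without wild-type replicate 2 or 3 or mutant replicate 3 and with low values raised. The MSN4 call ended without wild-type replicate 1 or 2 or mutant replicate 1 or 3, with median centring and with low values raised. SHO1, an osmosensor of the Hog1 pathway, fell by 0.20 on the log2 scale (limma adjusted p = 0.0404). That call ended with cyclic loess, without the variance trend, and with an array omitted, except where mutant replicate 2 was the one omitted. With the replicate block HOT1, another regulator of the pathway, also passed as lower (log2 -0.18, limma adjusted p = 0.042 against 0.0789 without it). HOT1 passed as lower, too, after quantile normalization and with median centring (log2 -0.24 in both, limma adjusted p of 0.0327 and 0.0233). MSN2 itself had 0.09 and HOG1 0.08 (limma adjusted p of 0.469 and 0.462).

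Other effectors of the general stress response rose with few exceptions. Of 20 measured genes 17 were higher and 0 lower (0 lower also at an unadjusted p below 0.05), beside 17.9% and 9.18% of all genes. The median log2 difference of the 20 was 0.70. CTT1, the cytosolic catalase, rose 2.41-fold from 66.9 ± 8.57 to 161 ± 18.8 (limma adjusted p = 9.04e-05). CTT1 is dim, and its log2 difference of 1.27 was 0.53 with low values raised. TSL1, a subunit of the trehalose synthase complex, rose 2.17-fold from 129 ± 13.9 to 281 ± 47.3 (adjusted p = 1.88e-04). The cell wall protein gene SPI1 rose 3.35-fold and the polyubiquitin gene UBI4 2.12-fold. GPD1, HSP104 and SOD2 did not pass, with log2 differences of 0.10, 0.15 and 0.20 (limma adjusted p of 0.338, 0.116 and 0.0934; SOD2 passed with the replicate block, 0.0203, and without wild-type replicate 2). HSP104 and SOD2 passed as higher after quantile normalization (0.26 and 0.24) and with cyclic loess (0.28 and 0.26). The GSY2 call (log2 0.45) ended after quantile normalization (0.33), with cyclic loess (0.37) and with low values raised. The HXK1 call ended with low values raised, where 15 of the 20 were higher. This list shares genes with results already known from these arrays and is not independent evidence of its direction. Mutant replicate 2 was the highest mutant array for 12 of the 20, and for 34.9% of all genes.

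A further 10 genes induced by osmotic stress or starvation had 9 higher and 0 lower in limma (0 lower also at an unadjusted p below 0.05). Of all genes 17.9% were higher and 9.18% lower. The median log2 difference of the 10 listed genes was 0.53. PAI3, an inhibitor of the vacuolar proteinase A, rose 2.01-fold from 99.7 ± 3.74 to 201 ± 11.6 (limma adjusted p = 5.13e-05). OM45, of the mitochondrial outer membrane, rose 1.97-fold from 159 ± 12.4 to 313 ± 17.7 (adjusted p = 4.54e-05). RTN2, a reticulon-like protein, rose 1.88-fold (log2 0.91, or 0.57 after quantile normalization), and YGP1, a secreted glycoprotein made under starvation, rose 1.60-fold. PAI3, OM45, RTN2 and HBT1 had mean signals below 232. The calls of HBT1 and FMP16 ended after quantile normalization (log2 0.03 and 0.29), with cyclic loess and with low values raised. Both also ended in several fits with 1 array omitted. The FMP16 call further ended with median centring and without the variance trend. The GRE3 call ended with low values raised and without wild-type replicate 1 or mutant replicate 3. DDR48 lost its call without mutant replicate 3. PNC1 did not pass (log2 0.11, limma adjusted p = 0.428). This list too was chosen with earlier results of these data known and is not independent evidence of its direction.

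Genes that yeast represses while glucose is plentiful were read as markers of the growth state, since both groups are labelled mid-log. Of 12 genes 11 were higher and 0 lower (0 lower also at an unadjusted p below 0.05), beside 17.9% and 9.18% of all genes. The median log2 difference of the 12 genes was 0.98 as deposited. Their summed signal lay between 1143 and 1358 on the wild-type arrays and between 2364 and 2426 on the mutant arrays. None was at 0, the lowest signal being 16.0 for POX1 in wild type, but 11 of the 12 had mean signals below 232. ADH2, the alcohol dehydrogenase that uses ethanol, rose 2.97-fold from 129 ± 22.7 to 379 ± 40.3 (limma adjusted p = 2.67e-05). The malate synthase gene MLS1 rose 3.06-fold, and the lactate permease gene JEN1 2.32-fold. The log2 difference of MLS1, 1.62 as deposited, was 0.65 with low values raised. POX1, for the first step of fatty acid oxidation, rose from 17.2 ± 0.992 to 59.3 ± 5.85, but all its values lay below the level to which low values were raised. SUC2, the invertase gene, had -0.10 (limma adjusted p = 0.551). When low values were raised, 7 of the 12 were higher. After quantile normalization and with cyclic loess 10 of the 12 were higher, and ACS1 lost its call (log2 0.21 and 0.25 against 0.71). Quantile normalization also lowered the differences of SFC1, from 0.87 to 0.38, and MLS1, from 1.62 to 1.24. The list of glucose-repressed genes was also chosen with earlier results of these data known, so it is not independent evidence of its direction. These markers move with the 10 genes, and their part in those differences was not tested.

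**Figure D4:**
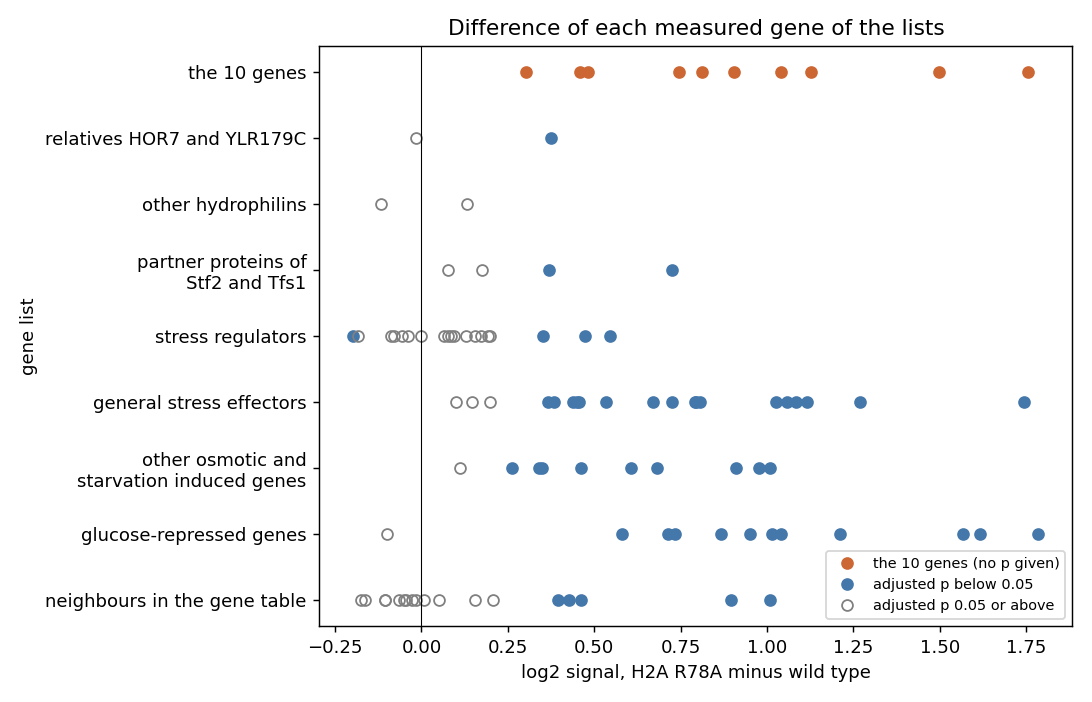
Log2 difference, H2A R78A minus wild type (x axis), of each measured gene of the lists (y axis). Orange points are the 10 genes, for which no p-value is given; filled blue points had a limma adjusted p below 0.05 and open grey points did not. The stress effectors and glucose-repressed genes lie to the right of 0 except SUC2 (-0.10), while most regulators and most neighbours of the 10 genes lie near 0.

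The genes next to the 10 in the gene table were read to see how far the differences extended along the chromosome. Of 20 neighbours 18 were measured, and 5 were higher (27.8%, against 17.9% of all genes) and 0 lower (1 lower at an unadjusted p below 0.05). Their median log2 difference was -0.0035, and 6 of the 18 had mean signals below 232. No neighbour overlaps its member in the table. Both measured genes around SIP18 rose: PAI3, which is transcribed away from it on the opposite strand, and YMR175W-A on the same strand (log2 1.01 and 0.90, limma adjusted p of 5.13e-05 and 4.95e-04). The difference of YMR175W-A was 0.50 after quantile normalization, and its call ended with low values raised (0.25, limma adjusted p = 0.0893). FMP40, transcribed away from GRE1, rose 1.38-fold, from 246 ± 3.05 to 339 ± 12.9 (limma adjusted p = 0.00144). MMT2, on the other side of GRE1, did not pass (log2 -0.16, limma adjusted p = 0.320), but passed as lower after quantile normalization (-0.44, 0.0126) and with cyclic loess (-0.39, 0.0261). YLR177W, which faces TFS1 from the other end, rose 1.34-fold (log2 0.43, adjusted p = 0.00609), close to the 0.46 of TFS1. AIM39, next to DDR2, rose by 0.40 on the log2 scale (adjusted p = 0.0282), but this call ended after quantile normalization (0.17), with cyclic loess (0.19), with low values raised, and without wild-type replicate 1 (0.29) or mutant replicate 1 (0.35) or 3 (0.37). The neighbours of RTC3, MSC1, STF2 and TMA10 did not pass, with log2 differences between -0.17 and 0.21, but SEC9 (-0.17), next to STF2, passed as lower with the replicate block (limma adjusted p = 0.0448) and with median centring (0.0307). RSC9 and NMA1, transcribed away from MSC1 and TMA10, had -0.04 and -0.05. The neighbours were listed after the data had been seen.

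Genes whose 6 signals followed the average course of the 10 were found by the root mean square distance between log2 profiles, each centred on the gene's own mean. The 6 nearest with a mean signal above 232 were MOG1, BNA4, GRX8, SOL4, YHR033W and OPI3, with distances from 0.047 to 0.069. MOG1, which acts in nuclear protein import, gave 213, 194 and 202 in wild type and 389, 419 and 361 in the mutant, a log2 difference of 0.94. OPI3, an enzyme of phosphatidylcholine synthesis, gave 587, 551 and 602 in wild type and 1023, 1013 and 1013 in the mutant (log2 0.81). MOG1 and OPI3 are neighbours in the gene table and are transcribed away from each other. The others were BNA4 of NAD synthesis (0.89), the glutaredoxin gene GRX8 (0.86), the 6-phosphogluconolactonase gene SOL4 (1.01) and YHR033W (0.82). These genes were picked for their likeness over 6 arrays, so their values are a description.

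**Figure D5:**
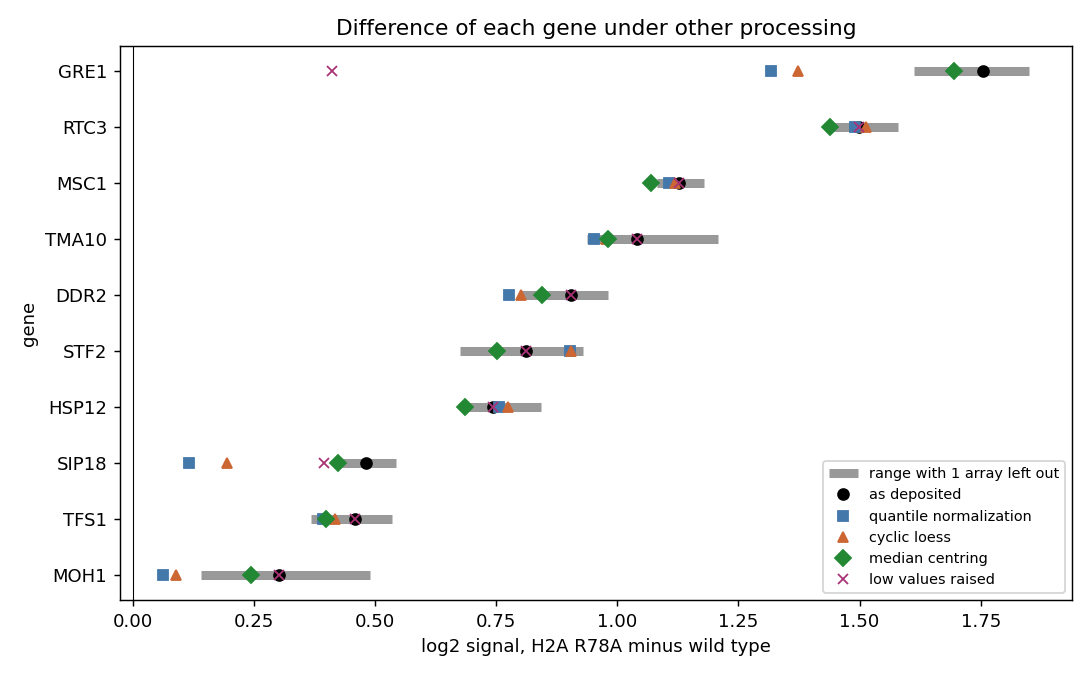
Log2 difference, H2A R78A minus wild type (x axis), of each of the 10 genes (y axis) as deposited and after 4 other treatments of the values; grey bars span the values with 1 array left out. No point lies below 0. GRE1 moves to 0.41 when low values are raised, SIP18 to 0.12 and MOH1 to 0.06 after quantile normalization, and the rest stay close to their deposited value.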

How the data were processed

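Probe set signal intensities were used as deposited; the authors' tools, per the submitters' processing notes, were MAS5 and limma, with versions not given in the sources used here. They are linear, with a mean trimmed by 2% at each end of 500 on every array, and log2 was taken with no further normalization. Neither scanner files nor detection calls were used here. Of 5900 probe sets 5498 were paired with 1 gene each through the platform annotation, with 12 symbols updated. The probe set with the highest mean stood for each of 47 genes with several, giving 5449 genes. The number of arrays limits the precision.

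The comparison of the groups used limma 3.58.1 under R 4.3.3 (two-sided, linear fit and eBayes with an intensity trend); p-values were adjusted by Benjamini-Hochberg over the 5449 genes, at a threshold of 0.05. The background level was the 25th percentile of mean log2 signals (7.86, a signal of 232). Fold changes are 2 to the power of the log2 difference.

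Residuals of arrays with the same replicate number correlated with r = 0.206, 0.383 and 0.427 across genes. For arrays with different numbers r ran from -0.449 to 0.154. Residuals cancel within each group, so these values constrain each other. The main fit did not use the replicate number. Because the numbers may pair the arrays, a fit with the number as a block was run as an alternative. Other alternatives were quantile normalization, median centring, cyclic loess, a background filter, low values raised, the mean of all probe sets, no trend, and leaving out each array.

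Named genes were the 10 members, HOR7 and YLR179C, up to 4 called genes of each list with the largest absolute difference (2 where none passed) and the 6 genes of most similar profile. Other genes in the text were picked with their values in view. The members and lists were chosen with earlier results of these data known. Coding lengths and neighbours come from the RefSeq gene table of assembly R64, where 96.3% of lengths are multiples of 3, and transcription directions from the last letter of the systematic names. Protein and promoter sequences were not used here. Figures were drawn with matplotlib 3.10.9.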

Additional observations from a re-analysis of the deposited data

How the results depend on the processing

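The 10 genes had a positive difference under every alternative that tested them, with a median from 0.77 to 0.92 against 0.86. From 7 (of the 7 left by the background filter) to 10 of them passed, against 9 as deposited. As deposited 17.9% of all genes passed as higher. The list was chosen on this contrast, so nothing is read from these signs or counts. Counts over all genes moved too. Higher genes numbered 573 after quantile normalization, 632 with cyclic loess, 419 with the background filter and 574 with low values raised, against 976. Lower genes numbered 875 with median centring, 312 without the intensity trend and 857 with the replicate block, against 500; leaving out 1 array gave 194 to 601, with 194 without mutant replicate 3, 228 without mutant replicate 1 or wild-type replicate 1, and 308 without wild-type replicate 2. Increases made up 66.1% of the calls as deposited, 51.7% after quantile normalization and 48.1% with median centring. Of the stress regulators, 0 were higher after quantile normalization, with cyclic loess and with the background filter, and 1 with low values raised, against 3; leaving out 1 array gave 1 to 3, with 1 without wild-type replicate 2 or mutant replicate 3. Lower regulators numbered 2 after quantile normalization, with median centring and with the replicate block, and 0 with cyclic loess and without the trend, against 1; leaving out 1 array gave 0 to 1. The background filter left 5 higher genes among the osmotic and starvation induced genes, where leaving out 1 array gave 6 to 8, and 1 among the glucose-repressed genes (HXT5, whose mean equals the background level and which the filter kept), because it removed dim genes. Low values raised gave 7 glucose-repressed genes higher. Of the neighbours 2 were higher with the background filter and 3 with low values raised, against 5. Of the neighbours 1 was lower after quantile normalization and with cyclic loess (MMT2), and 1 with median centring and the replicate block (SEC9), against 0. The cause of these changes was not tested, apart from the genes that the filter removed. The replicate block changed the calls of MOH1, IRA2, HOT1, SOD2 and SEC9 and no other call among the 10 genes, the other lists and the neighbours. Mean signals of GRE1, SIP18 and MOH1 were below the background level, so the filter left these genes untested.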
